A study of Mus musculus with 8 samples.

Results

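The genes described here are 31 genes of cholesterol synthesis, uptake and efflux, chosen by name from the pathway. A member was found when a probe that is not a control carried its symbol as gene name, and the probe with the highest mean signal over the 8 arrays stood for the gene. This gave 30 of the 31 genes, among 37074 gene names on the array, and *Acat2* was not analysed here. They were told apart as 17 synthesis enzymes, 4 genes of SREBP control, 5 genes of LXR and efflux and 4 genes of intracellular transport and storage.

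The comparison asks how expression in tissue labelled brown adipose tissue (BAT) differed after bacterial endotoxemia. All mice were C57BL/6J, 12 weeks old, and were sampled 18 h after an intravenous injection of 100 μL. Control mice (Co mice, n = 4) received saline, and Pg mice (n = 4) received sonicated *Porphyromonas gingivalis*, a bacterium of periodontitis, suspended in saline. The labels print the dose as 108 CFU, where the study's methods write the 8 as an exponent of 10. Each mouse had 1 Agilent one-color array. Nothing in the labels ties a Co mouse to a Pg mouse.

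Cells make cholesterol from acetyl-CoA through mevalonate, isoprenoid diphosphates, squalene and lanosterol. When sterols in the endoplasmic reticulum are low, SCAP escorts the precursor of SREBP-2, the product of *Srebf2*, to the Golgi, where it is cut to a transcription factor that turns on the synthesis genes, and INSIG proteins hold the complex back when sterols are plentiful. The liver X receptors (LXR) sense oxysterols and turn on genes of cholesterol efflux.

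The promoters of *Srebf2*, *Dhcr7* and *Ebp* are shown because these are the members that passed the test described below, and that of *Hmgcs1* because it was the member that held the longer of the sterol elements searched. They are RefSeq windows of build GRCm38.p6, from 250 bases before to 50 bases after a start, written 5′ to 3′ on the strand of the gene. Capitals mark TCACCCCA and TCACNCCAC, forms of the sterol regulatory element that SREBPs bind, and CCAAT, the box bound by NF-Y, each searched on both strands, so that ATTGG is a CCAAT box on the other strand. The first pair of motifs overlap where both occur. The *Srebf2* window is chr15:82147019-82147318 (+), the *Dhcr7* window chr7:143829964-143830263 (+), the *Ebp* window chrX:8193463-8193762 (-) and the *Hmgcs1* window chr13:119690101-119690400 (+).
Srebf2: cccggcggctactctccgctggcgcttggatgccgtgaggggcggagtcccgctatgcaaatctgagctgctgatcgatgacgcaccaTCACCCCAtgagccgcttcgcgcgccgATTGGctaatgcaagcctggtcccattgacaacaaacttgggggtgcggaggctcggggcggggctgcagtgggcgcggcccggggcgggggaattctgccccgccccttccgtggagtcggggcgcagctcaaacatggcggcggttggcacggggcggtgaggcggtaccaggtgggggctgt
Dhcr7: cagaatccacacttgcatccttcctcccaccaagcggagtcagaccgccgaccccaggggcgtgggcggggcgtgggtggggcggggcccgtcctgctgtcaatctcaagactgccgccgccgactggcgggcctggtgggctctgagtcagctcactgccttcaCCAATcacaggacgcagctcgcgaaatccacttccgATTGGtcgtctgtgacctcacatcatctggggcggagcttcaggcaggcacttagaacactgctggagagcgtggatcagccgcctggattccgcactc
Ebp: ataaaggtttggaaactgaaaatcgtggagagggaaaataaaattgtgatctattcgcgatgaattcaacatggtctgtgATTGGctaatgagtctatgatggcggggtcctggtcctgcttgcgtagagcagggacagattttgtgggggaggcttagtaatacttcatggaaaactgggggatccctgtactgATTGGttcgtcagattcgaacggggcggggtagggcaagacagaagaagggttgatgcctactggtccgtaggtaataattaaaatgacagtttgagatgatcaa
Hmgcs1: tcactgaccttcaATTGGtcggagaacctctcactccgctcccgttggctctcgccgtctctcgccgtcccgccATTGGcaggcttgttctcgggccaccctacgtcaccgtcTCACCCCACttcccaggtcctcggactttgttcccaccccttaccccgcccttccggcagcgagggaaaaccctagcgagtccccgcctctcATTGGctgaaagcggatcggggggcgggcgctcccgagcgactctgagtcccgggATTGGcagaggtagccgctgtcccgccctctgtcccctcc

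Windows were listed for 24 of the 30 genes (none for *Abcg1*, *Fdft1*, *Fdps*, *Npc1*, *Sqle* and *Stard4*). TCACCCCA was in 2 of the 24 (*Hmgcs1* and *Srebf2*) and in a window of 1.77% of all 27025 gene symbols (1.56% of 32851 windows), and TCACNCCAC was in 1 (*Hmgcs1*) and in 1.44% of symbols (1.24% of windows). In the *Srebf2* window TCACCCCA began 162 bases before the start, and in the *Hmgcs1* window 137 bases before it. CCAAT was in a window of 20 of the 24 genes (83.3%), against 41.1% of all gene symbols with a window. Both *Dhcr7* and *Ebp* held 2 CCAAT boxes and neither sterol element, and for *Dhcr7* the window shown is the 1 of its 3 that held a motif. These are matches of letters, and no binding was measured.

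The Co arrays had 34760 to 35831 probes well above background and the Pg arrays 31132 to 34063, so the ranges did not overlap. The label of the tissue was checked against markers. Of 12 brown adipocyte genes, *Ucp1*, *Elovl3*, *Slc27a2* and *Bmp8b* were well above background on no array, 7 were on all 8, and the log2 of their summed signal lay between 18.84 and 18.99 in Co and between 18.97 and 19.10 in Pg mice. Most of this sum came from *Cox8b* and *Cox7a1*, which muscle also expresses. All 12 skeletal muscle genes were well above background on all 8 arrays, with sums of 21.13 to 21.26 and 21.09 to 21.25. These sums came mostly from a few probes near the top of the scale. In the fit 10 of the 12 genes were lower in Pg mice, with *Atp2a1* at -0.44 (q = 0.0411), and of all probes 42.3% were above 0. *Tnni2* (-0.0082) and *Tnnt3* (0.0082) each held the same value on every array except Co replicate 1, so their signs carry little meaning. The lack of signal at the brightest probe of *Ucp1*, the defining gene of brown fat, and the bright muscle genes go against the label, while *Cidea*, *Ppargc1a* and all 10 adipocyte genes were well above background on all 8 arrays. The 8 endothelial genes were also detected on every array, and their sums did not overlap (14.63 to 14.88 in Co and 15.06 to 15.16 in Pg mice). Most of this sum came from *Egfl7* (log2 fold change 0.42, q = 0.0419). *Kdr* was also higher (0.57, q = 0.0573), and *Cldn5*, *Vwf* and *Cdh5*, at 0.41, 0.30 and 0.13, did not pass. *Pecam1*, *Tek* and *Tie1* were at -0.20, -0.14 and -0.14 and did not pass. In the fit 5 of the 8 genes were higher, and 2 (25%) had a q under 0.1, against 7.82% of all probes. The sums of adipocyte, macrophage, red blood cell and hepatocyte genes overlapped between the groups, and 4 of 6 hepatocyte genes were above background on no array. The part of cell make-up in the results below was not tested, and in whole tissue fewer cells of a type and less RNA per cell cannot be told apart.

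Of the 30 cholesterol genes, *Ebp* was higher and *Srebf2* and *Dhcr7* were lower in Pg than in Co mice at a q under 0.1, the limit of the study's methods. Across all 33819 probes tested 7.82% passed this limit (1.82% higher and 6% lower), so 3 of 30 members, or 10%, lay near the share of all probes. None was a differentially expressed gene (DEG), which also needs a fold change above 1.5, against 1.61% of all probes. At an unadjusted p under 0.05, 5 members were higher and 5 lower (33.3%), against 22.8% of all probes (6.86% higher and 16% lower). Fold changes were small, with a median absolute log2 fold change of 0.14 for the members and 0.14 for all probes. The members were split evenly, 15 higher and 15 lower in the fit, with a median of 0.03, where all probes had a median of -0.04. All values are log2 of the quantile-normalized signal, and tests are those of limma, two-sided, with q adjusted over all probes tested. The plot of every member on every array shows that the Co and Pg values overlapped for most genes.

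**Figure D1:**
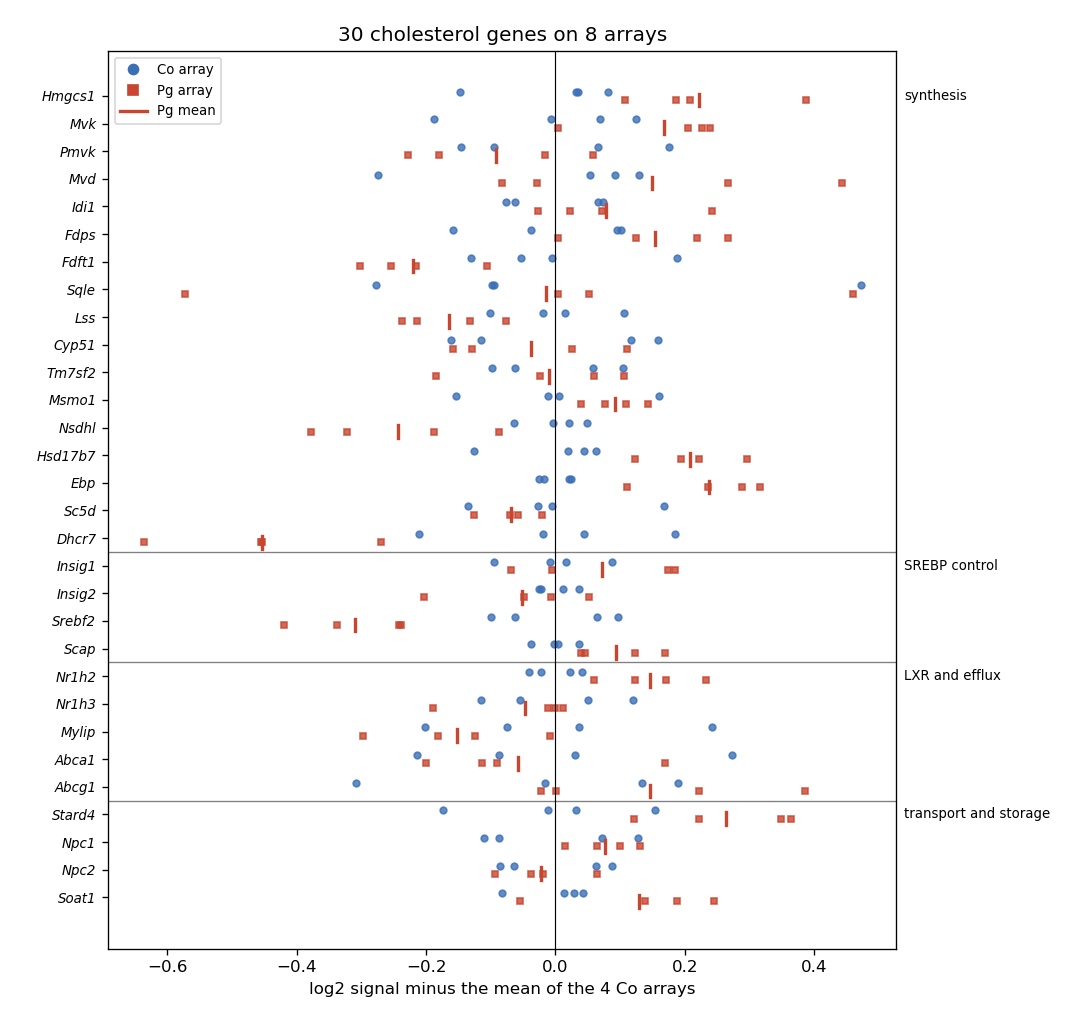
Log2 signal of each of the 30 members on each array, minus the mean of the 4 Co arrays (x axis), with Co arrays as circles, Pg arrays as squares and the Pg mean as a bar. *Dhcr7* and *Srebf2* lie to the left and *Ebp* to the right without overlap, and 22 of the 30 genes overlap.

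For 8 of the 30 members (26.7%) the 4 Pg arrays lay wholly on one side of the 4 Co arrays, against 15.8% of all probes. Those above were *Hmgcs1*, *Hsd17b7*, *Ebp*, *Scap* and *Nr1h2*, and those below were *Nsdhl*, *Dhcr7* and *Srebf2*. Over all probes the share wholly above was 4.83% and wholly below 11%.

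*Srebf2*, which encodes the transcription factor that drives the pathway, had log2 signals of 10.32, 10.36, 10.16 and 10.20 on the Co arrays and of 10.02, 9.92, 9.84 and 10.02 on the Pg arrays. Every Pg array was below every Co array. The mean fell from 10.26 ± 0.10 (SD, n = 4) to 9.95 ± 0.09 (SD, n = 4), a log2 fold change of -0.31 (SE 0.07, q = 0.0702, limma). A dimmer probe of *Srebf2* was at -0.39 (SE 0.15, q = 0.177), with overlapping groups. The brightest probe lies at chr15:82035495-82035554 in mm9, the build of the array files. With any 1 of the 8 arrays left out the log2 fold change stayed between -0.34 and -0.27 and q lay between 0.105 and 0.15, so no such fit passed.

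The other genes of SREBP control did not pass the test. *Scap*, the escort of the SREBP precursors, had 11.80, 11.84, 11.76 and 11.81 on the Co arrays and 11.84, 11.97, 11.85 and 11.93 on the Pg arrays. These groups did not overlap, but the nearest arrays were less than 0.01 apart, and the fitted log2 difference was 0.09 (SE 0.05, q = 0.338). *Insig1* and *Insig2* encode the proteins that retain the SCAP complex. Their log2 differences were 0.07 (SE 0.08, q = 0.624) and -0.05 (SE 0.07, q = 0.680), and both changed sign with the normexp background correction. Within each array the log2 signal of *Insig1* minus that of *Insig2* differed between the groups by 0.12, which did not pass an exact permutation test (two-sided p = 0.371, adjusted over 4 pairs of members 0.371, smallest possible 0.0286). It ranged from 0.03 without Pg replicate 2 to 0.20 without Pg replicate 3.

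*Dhcr7*, the reductase of the last step to cholesterol, had 7.22, 7.41, 7.61 and 7.47 on the Co arrays and 6.79, 7.16, 6.98 and 6.97 on the Pg arrays. All Pg arrays were below all Co arrays, with Co replicate 1 and Pg replicate 2 nearest to each other. The mean fell from 7.43 ± 0.16 to 6.97 ± 0.15 (SD, n = 4 each), a log2 fold change of -0.45 (SE 0.11, q = 0.0714, limma), so that Co was 1.37-fold above Pg. This was the only *Dhcr7* probe tested, at chr7:151033874-151033933 in mm9. Of 10 equal groups of probes from dim to bright it lay in group 4, whose median log2 fold change was -0.08. Under cyclic loess, which takes out the trend with brightness, *Dhcr7* was at -0.37 with q = 0.131. It passed in 2 of the 8 fits that left out 1 array, those without Co replicate 1 and without Pg replicate 2, and q ranged from 0.0893 to 0.146.

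*Ebp*, the sterol isomerase that acts a few steps earlier, moved the other way. It had 11.35, 11.30, 11.31 and 11.35 on the Co arrays and 11.56, 11.62, 11.44 and 11.64 on the Pg arrays. The Co arrays lay within a narrow range and all Pg arrays were above it. The mean rose from 11.33 ± 0.03 to 11.57 ± 0.09 (SD, n = 4 each), a log2 fold change of 0.24 (SE 0.06, q = 0.0824, limma). The probe lies at chrX:7762463-7762522 in mm9. A second *Ebp* probe, which was also well above background on all arrays, was at -0.02 (SE 0.08, q = 0.889), and the mean of both was at 0.11 with q = 0.373. *Ebp* passed in 1 of the 8 fits that left out 1 array, the one without Pg replicate 3, with q from 0.0688 to 0.172. The plot of these genes by array shows the gap between the groups beside the spread within each.

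**Figure D2:**
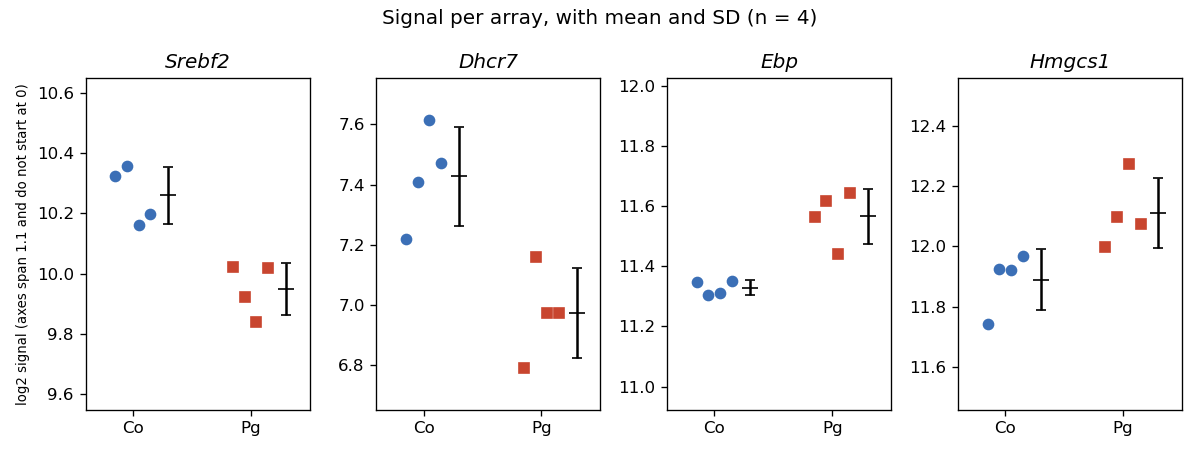
Log2 signal (y axis, each panel spanning 1.1 and not starting at 0) of *Srebf2*, *Dhcr7*, *Ebp* and *Hmgcs1* on the 4 Co arrays (circles) and 4 Pg arrays (squares), with the mean and SD of each group in black. The groups do not overlap in any panel, and *Hmgcs1* did not pass the test (q = 0.162).

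The enzymes up to farnesyl diphosphate are *Hmgcs1*, *Mvk*, *Pmvk*, *Mvd*, *Idi1* and *Fdps*, and none of them passed the test. The fitted differences of 5 of the 6 were above 0, as were those of 42.3% of all probes, and their median was 0.15 (log2). The count was 5 in the other settings and with any 1 array left out, except with the mean of all probes of a gene, which gave 4, and in the authors' log2 table it was 5 of the 5 listed. The division of the enzymes into these steps and the later ones was made after their values were seen. *Hmgcs1*, the HMG-CoA synthase of the cytosol, had 11.74, 11.92, 11.92 and 11.97 on the Co arrays and 12.00, 12.10, 12.28 and 12.07 on the Pg arrays. The groups did not overlap, with Co replicate 4 and Pg replicate 1 about 0.03 apart, and the log2 difference was 0.22 (SE 0.08, q = 0.162). It had q = 0.0894 with the normexp background correction.

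*Mvk*, mevalonate kinase, was at 0.17 (SE 0.09, q = 0.301), and its second probe at -0.43 (SE 0.08, q = 0.0551). *Fdps*, farnesyl diphosphate synthase, was at 0.15 (SE 0.09, q = 0.329). *Mvd*, the decarboxylase, was also at 0.15, with a larger SE of 0.14 (q = 0.568), and at 0.05 without Pg replicate 2 and 0.06 without Co replicate 4, or 0.23 without Pg replicate 1. Its arrays ranged from 10.62 to 11.02 in Co and from 10.81 to 11.33 in Pg mice, the widest spread among these enzymes. *Idi1*, the isomerase of isopentenyl diphosphate, was at 0.08 (SE 0.08, q = 0.582; 0.02 to 0.11 with 1 array left out). *Pmvk*, phosphomevalonate kinase, was the one lower, at -0.09 (SE 0.10, q = 0.614; -0.14 to -0.03 with 1 array left out).

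Of the 11 enzymes from squalene to cholesterol, *Ebp* rose, *Dhcr7* fell and the other 9 did not pass. In the fit 8 of the 11 were lower, where 42.3% of all probes were above 0, and their median of -0.04 was that of all probes to this precision. This count was less stable than that of the earlier steps, at 5 under cyclic loess, 5 without normalization between arrays and 9 with the mean of all probes of a gene, and at 5 to 8 with 1 array left out. The authors' log2 table held 6 of these enzymes, of which 4 were lower. At an unadjusted p under 0.05, 2 were higher and 4 lower (54.5% of the 11, against 6.86% higher and 16% lower of all probes).

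*Fdft1*, squalene synthase, which commits farnesyl diphosphate to sterols, had 13.15, 13.07, 13.20 and 13.39 on the Co arrays and 12.99, 12.90, 12.95 and 13.10 on the Pg arrays. Only Pg replicate 4 reached into the Co range, and the log2 difference was -0.22 (SE 0.08, q = 0.171). *Fdft1* had q = 0.0728 with the median signal and no background subtraction and 0.0900 with normexp. A second *Fdft1* probe was at -0.25 (SE 0.10, q = 0.196). *Nsdhl*, a sterol dehydrogenase, had 7.75, 7.70, 7.72 and 7.64 on the Co arrays and 7.38, 7.32, 7.51 and 7.61 on the Pg arrays. All Pg arrays were below all Co arrays, with a log2 difference of -0.24 (SE 0.08, q = 0.120). *Nsdhl* had q = 0.0875 with normexp. *Hsd17b7*, the keto reductase that works with it, was higher on all Pg arrays, from 8.29 to 8.48 in Co and from 8.54 to 8.71 in Pg mice. Its log2 difference was 0.21 (SE 0.07, q = 0.125), and a second probe was at -0.0018 (SE 0.08).

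*Lss*, lanosterol synthase, was at -0.16 (SE 0.07, q = 0.195). Across the other settings it ranged from -0.56 with the mean of all probes to -0.035 without normalization. *Msmo1*, the methylsterol oxidase, was at 0.09 (SE 0.07, q = 0.497) and *Sc5d*, the sterol desaturase, at -0.07 (SE 0.07, q = 0.612). The differences of *Cyp51*, the demethylase of lanosterol, *Sqle*, squalene epoxidase, and *Tm7sf2*, a sterol reductase, were -0.04, -0.01 and -0.01, each smaller than its SE. Second probes of *Tm7sf2* and *Msmo1* were at -0.50 (q = 0.0398) and -0.42 (q = 0.0580). *Sqle* varied most among the 30 genes, from 5.51 to 6.26 in Co and from 5.22 to 6.25 in Pg mice, with an SE of 0.24. The plot of fitted changes in pathway order shows the enzymes from first to last step.

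**Figure D3:**
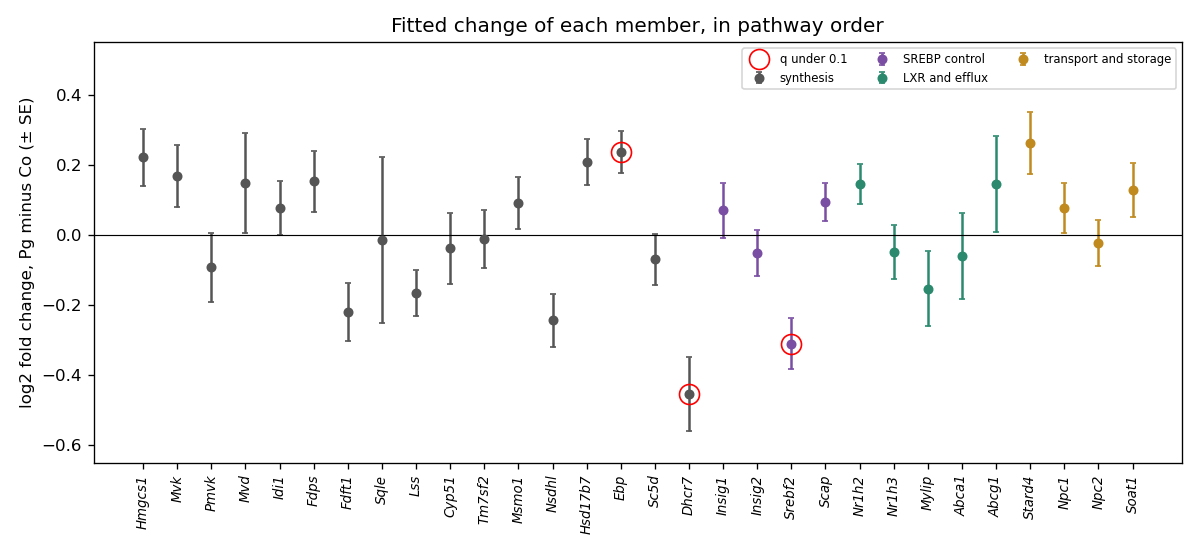
Fitted log2 fold change, Pg minus Co, with its SE (y axis) of the 30 members, placed by step within synthesis and then by class (x axis), with the 3 genes of q under 0.1 ringed. Of the first 6 enzymes 5 are above 0, and from *Fdft1* to *Dhcr7* 8 of 11 are below 0, counts that change to 4 and 9 with the mean of all probes of a gene and to 5 and 5 under cyclic loess.

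None of the 5 genes of LXR and efflux passed the test. *Nr1h2*, LXR beta, had 12.91, 12.85, 12.87 and 12.93 on the Co arrays and 12.95, 13.12, 13.01 and 13.06 on the Pg arrays. The groups did not overlap, and the log2 difference was 0.15 (SE 0.06, q = 0.184). *Nr1h3*, LXR alpha, was at -0.05 (SE 0.08, q = 0.743), with overlapping groups. The log2 signal of *Nr1h3* minus that of *Nr1h2* differed by -0.19 between Pg and Co mice, which did not pass the exact permutation test (p = 0.0857, adjusted 0.343), and by -0.12 without Pg replicate 2.

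*Abca1*, which loads cholesterol onto apolipoproteins, was at -0.06 (SE 0.12, q = 0.806), from 9.18 to 9.66 in Co and from 9.19 to 9.56 in Pg mice. *Abcg1*, which exports cholesterol to HDL, was at 0.15 (SE 0.14, q = 0.558), from 7.85 to 8.35 and from 8.13 to 8.54. Both spread over more than the difference of their means. Their difference within an array, *Abca1* minus *Abcg1*, changed by -0.21 (exact permutation p = 0.257, adjusted 0.371), and ranged from -0.34 without Co replicate 2 to -0.09 without Co replicate 1. *Abcg1* alone was at 0.04 without Co replicate 1 and 0.07 without Pg replicate 4. *Mylip*, an LXR target that encodes a ubiquitin ligase, was at -0.15 (SE 0.11, q = 0.433), and at -0.22 without Co replicate 3 and -0.07 without Co replicate 4.

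Of the 4 genes of transport and storage none passed. *Stard4*, a sterol carrier of the cytosol and a target of SREBP-2, had 6.95, 7.11, 7.15 and 7.27 on the Co arrays and 7.47, 7.34, 7.24 and 7.48 on the Pg arrays. Only Pg replicate 3 fell within the Co range, and the log2 difference of 0.26 (SE 0.09, q = 0.141) did not pass. It had q = 0.0829 with the median signal and no background subtraction, 0.0931 with normexp and 0.0936 in the authors' log2 values. *Soat1*, which esterifies cholesterol for storage, was at 0.13 (SE 0.08, q = 0.352), and *Npc1* and *Npc2*, which move cholesterol out of the late endosome, were at 0.08 (SE 0.07, q = 0.554) and -0.02 (SE 0.07, q = 0.869). *Npc1* minus *Npc2* differed by 0.10 (exact permutation p = 0.286, adjusted 0.371), and ranged from 0.04 without Co replicate 3 to 0.16 without Co replicate 1. With 4 arrays per group a single pair cannot have an adjusted p below 0.114, so the adjusted test could not pass for 1 pair alone.

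The array holds 61 probes for the 30 genes, of which 49 were tested. For 14 genes 1 probe was tested and for 16 several were. In 11 of the 16 the probes had the same sign, and in 5 (*Mvk*, *Msmo1*, *Hsd17b7*, *Ebp* and *Npc1*) they did not. Of the 19 tested probes other than the brightest, 16 were lower in Pg mice and 4 (21.1%) had a q under 0.1, all of them lower. Of all probes 42.3% were above 0, 7.82% had a q under 0.1 and 6% were lower at that limit. These were the second probes of *Tm7sf2* (-0.50, q = 0.0398), *Mvk* (-0.43, q = 0.0551) and *Msmo1* (-0.42, q = 0.0580) and the third of *Insig2* (-0.35, q = 0.0507). The brightest probe of each of these 4 genes did not pass. For *Mvk* the second probe had 7.23, 7.13, 6.99 and 7.25 on the Co arrays and 6.63, 6.85, 6.65 and 6.73 on the Pg arrays, so that it lay wholly below where the brightest probe was on average above.

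For a few of these probes the size of the difference rested mostly on 1 array. The third *Lss* probe had a log2 difference of -1.29 (SE 0.80, q = 0.376), where Co replicate 3 stood at 8.93 and the other Co arrays between 5.21 and 5.35. Its Pg arrays lay between 4.83 and 4.99, below all Co arrays. The second *Nr1h2* probe had 0.49 (SE 0.45, q = 0.553), where Pg replicate 4 stood at 9.84 and the other Pg arrays between 7.65 and 8.02. The brightest probes of these genes showed no such array.

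Fold changes of all probes ran with brightness. With the tested probes in 10 equal groups by mean signal, the median log2 fold change was -0.15 in the dimmest group, -0.08 in group 4 and 0.011 in the brightest, and under cyclic loess these medians were 0.014, 0.017 and 0.0082. Cyclic loess moved the dimmer members upward, such as *Insig1* (0.07 to 0.22), *Soat1* (0.13 to 0.24), *Stard4* (0.26 to 0.34) and *Dhcr7* (-0.45 to -0.37), and left *Srebf2* at -0.30 with q = 0.0904, the only member that passed there. The plot of fold change against brightness shows the dimmer probes of a gene mostly below its brightest one.

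**Figure D4:**
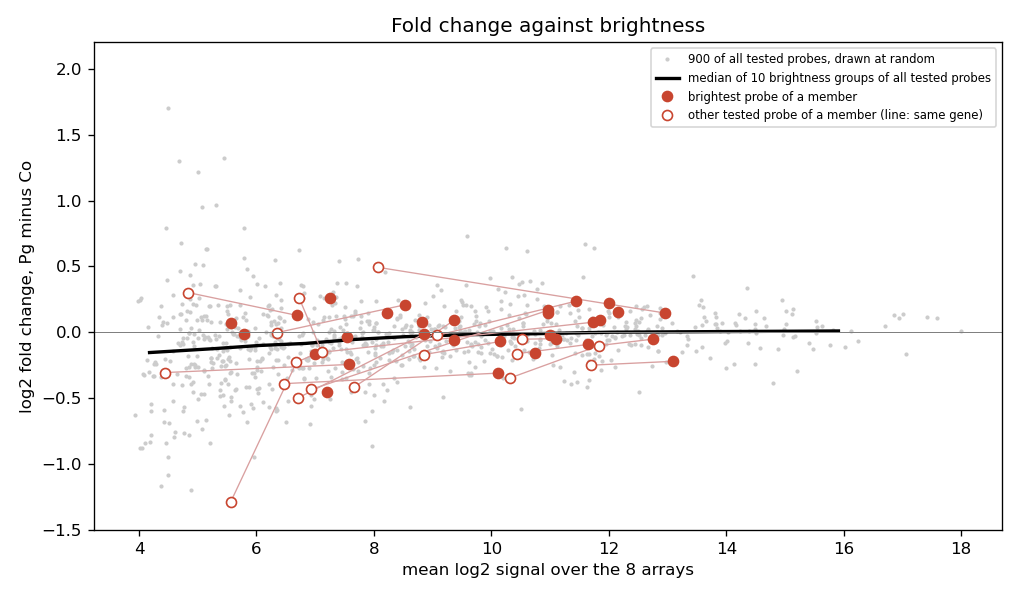
Fitted log2 fold change, Pg minus Co (y axis), against the mean log2 signal over the 8 arrays (x axis), for the brightest probe of each member (filled circles), the other 19 tested probes (open circles, joined to the brightest of the same gene), 900 probes drawn from all tested (grey points) and the medians of the 10 brightness groups of all tested probes (black line). The line climbs from -0.15 to 0.01, and 16 of the 19 open circles are below 0.

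Of 37 further genes of cholesterol handling, 36 had a probe and 35 were tested. None passed q under 0.1, against 7.82% of all probes. At an unadjusted p under 0.05, 7 were higher and 2 lower (25.7%), against 6.86% and 16% of all probes (22.8%), and the median log2 difference was 0.04. The 3 with the largest absolute difference were *Ch25h*, which makes the oxysterol 25-hydroxycholesterol, with 5.54 ± 0.32 in Co and 6.02 ± 0.31 in Pg mice (0.48, SE 0.20, q = 0.203), *Apoe*, the apolipoprotein (0.38, SE 0.27, q = 0.431), and *Lcat*, the plasma cholesterol acyltransferase (0.35, SE 0.14, q = 0.194). *Apoe* ranged from 12.25 to 12.86 in Co and from 12.24 to 13.48 in Pg mice, so the Pg arrays spanned the whole Co range.

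Across the 30 members no array stood apart in all. Co replicate 4 was the highest of its group for 11 genes and Co replicate 1 the lowest for 12, and Pg replicate 4 was the highest for 11 and Pg replicate 1 the lowest for 11. Over the first 6 enzymes the median distance from the Co mean was above 0 on all 4 Pg arrays, at 0.0038, 0.21, 0.25 and 0.05 for replicates 1 to 4, and on 2 of the 4 Co arrays. Over the 11 later enzymes it was below 0 on all 4 Pg arrays, from -0.13 to -0.02, and on 3 of the 4 Co arrays. The enzymes were divided after their values were seen, so these medians are no separate check of the division.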

How the data were processed

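RNA labeled with Cy3 was hybridized to 8 one-color arrays on a single slide, with the Co arrays in one row and the Pg arrays in the other, so that position and group cannot be told apart. The authors deposited, for each array, the output of Agilent Feature Extraction 11.0.1.1, in which the intensity of each spot is background-subtracted and detrended but not normalized between arrays. The authors also deposited a table of quantile-normalized log2 values, used as an alternative, with their fold changes, p-values and scores, which were not used. Their gene names and mm9 positions are those of the array files.

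Processed intensities were averaged per probe (56605 probes), quantile-normalized, set to 1 where below it and put on the log2 scale. The 33819 probes called well above background by the scanner software on 4 or more arrays were tested. Co and Pg were compared with limma 3.58.1 in R 4.3.3, with Benjamini-Hochberg adjustment, and the method was tested on simulated data. The pair differences were tested with an exact permutation test of 70 splits. Precision is limited by the number of arrays. The limma tests set the difference between the groups against the spread between arrays within a group, with 1 array per mouse. They do not account for position on the slide. Members, classes, further genes, motifs and tests were chosen with earlier results of these data known. Named are all members, the further genes with q under 0.1 and the 3 with the largest absolute fold change. Alternatives were normexp with an offset of 50, scanner medians from which no background was taken, scaling to the 75th percentile, no normalization, other filters, the mean of probes, the authors' values, a replicate block, arrays left out in turn and, added after seeing the data, cyclic loess. Promoter windows were matched by symbol.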

Additional observations from a re-analysis of the deposited data

Results flagged for a closer look

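In 2 of 60 groups of 4 arrays, 30 genes in each of Co and Pg, 1 array lay far from the rest by Dixon's test. The log2 signal of *Mvk* on the array of Pg replicate 1 was 10.89, where the other Pg arrays lay between 11.09 and 11.13. That of *Nr1h3* on the array of Pg replicate 2 was 10.94, where the others lay between 11.11 and 11.14. Chance flags about 1 in 20 groups, or 3 of 60.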

How the results depend on the processing

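No member was a DEG in any setting, and *Dhcr7*, *Srebf2* and *Ebp* kept their directions wherever they had a value. The 3 calls depended on the setting. With normexp 7 members passed, and 4 did with the median signal and no background subtraction (not *Ebp*). With 75th percentile scaling and under cyclic loess 1 passed (*Srebf2*). With the authors' log2 values 1 passed (*Stard4*), where *Srebf2* had q = 0.101, *Dhcr7* q = 0.110 and *Ebp* no value. Without normalization and without the filter on dim probes 0 passed. The stricter filter gave 3, and the mean of all probes also 3, with *Tm7sf2* in place of *Ebp*. The causes were not tested. Over all probes the called were 616 higher and 2028 lower, against 515 and 710 under cyclic loess, 441 and 1105 with 75th percentile scaling, and 20 and 9 without normalization. With 1 array left out 0 to 1 member passed, and between 3 (without Co replicate 3) and 2378 (without Pg replicate 3) of all probes did. Members with p under 0.05 numbered 6 to 11 across settings, 10 as reported above and 6 with the authors' log2 values, which hold 23 members.

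The replicate numbers did not pair the arrays throughout (correlations of deviations 0.0589, -0.027, -0.0684 and 0.178), and only numbers 1 and 4 were each other's best match. With the replicate block 0 members and 0 of all probes had a q under 0.1, and 10 members had p under 0.05.

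Other directions changed. With normexp those of *Tm7sf2* (0.019), *Insig1* (-0.036), *Insig2* (0.012), *Npc2* (0.0062) and *Insig1* minus *Insig2* (-0.048) turned, and with medians from which no background was taken those of *Sc5d* (0.010), *Insig2* (0.014) and *Insig1* minus *Insig2* (-0.0042). With 75th percentile scaling *Sqle* (0.10) and *Cyp51* (0.010) turned, without normalization *Sqle* (0.15), *Cyp51* (0.060) and *Tm7sf2* (0.039), and under cyclic loess *Sqle* (0.12), *Cyp51* (0.028) and *Tm7sf2* (0.024). With the mean of all probes *Mvk* (-0.13) and *Msmo1* (-0.16) turned, and in the authors' values *Sqle* (0.019), *Msmo1* (-0.082), *Sc5d* (0.011), *Insig1* (-0.022), *Insig2* (0.0083) and *Insig1* minus *Insig2* (-0.031). With 1 array left out *Sqle* ranged from -0.17 to 0.17, *Cyp51* from -0.091 to 0.015, *Tm7sf2* from -0.050 to 0.047, *Abca1* from -0.13 to 0.032 and *Npc2* from -0.050 to 0.0073. Without a change of sign, *Mvk* ranged from 0.11 to 0.22, *Fdps* from 0.10 to 0.20, *Msmo1* from 0.041 to 0.15, *Sc5d* from -0.11 to -0.013, *Insig1* from 0.034 to 0.12, *Insig2* from -0.086 to -0.0006, *Nr1h3* from -0.086 to -0.0006 and *Npc1* from 0.040 to 0.12. The unadjusted exact permutation p of a pair was 0.0286 without Co replicate 2 (*Abca1* minus *Abcg1*), without Co replicate 1 (*Npc1* minus *Npc2*) and without Pg replicate 1 or with the authors' values (*Nr1h3* minus *Nr1h2*).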
